A study of Mus musculus with 20 samples.

Results

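The genes described here are 9 members of the family of regulators of G-protein signaling: Rgs1, Rgs2, Rgs3, Rgs10, Rgs12, Rgs14, Rgs16, Rgs18 and Rgs19. They were taken by symbol from a table of 21963 gene entries, and their RNA was followed over all 5 groups of a study of macrophages. The members were chosen by symbol from family genes whose counts and changes between these groups were already known, and no cut on a value is part of the rule. All 9 passed the filter on low counts, which left 11707 entries to test. Their levels and calls describe these 9 genes and say nothing about the family as a whole.

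The study asked how calcium, and its uptake into mitochondria, bears on the response of macrophages to zymosan, a yeast cell wall particle that they take up. Bone marrow-derived macrophages (BMDMs) were grown for 7 days in medium conditioned by L929 cells, from WT mice and from Mcu-/- mice of 15 to 25 weeks. Mcu is the pore of the mitochondrial calcium uniporter, and the Mcu-/- cells came from animals in which Cx3cr1-cre deletes a floxed Mcu. Cre in these cells is driven by the Cx3cr1 promoter. The groups were WT untreated (n = 4), WT given 2 zymosan particles per cell for 3 h (n = 5), WT given the same after loading with 10 uM BAPTA-AM, a chelator of calcium inside the cell (n = 4), Mcu-/- untreated (n = 4) and Mcu-/- with zymosan for 3 h (n = 3). No Mcu-/- group with BAPTA-AM and no untreated group with BAPTA-AM was analysed here. The labels call the samples biological replicates but do not say whether they came from separate animals or cultures, so p-values measure the spread between these samples, which may be technical.

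RGS proteins act on the heterotrimeric G proteins that carry signals from chemokine, prostaglandin, purine and other receptors. Their shared RGS domain speeds up GTP hydrolysis by Gα subunits, mainly of the Gi and Gq classes, which ends the signal. In leukocytes they are known for limiting chemokine receptor signaling and migration. Rgs1, Rgs2, Rgs3, Rgs16 and Rgs18 belong to the R4 subfamily, most of whose members are small proteins with little beside the RGS domain. Rgs10, Rgs12 and Rgs14 belong to the R12 subfamily, of which Rgs12 and Rgs14 are larger proteins that also carry a GoLoco motif, which binds inactive Gαi. Rgs19 belongs to the RZ subfamily, which has a cysteine-rich string near its N terminus.

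Of the members, 4 lie on mouse chromosome 1 (build mm10, gene models of GENCODE M21). Rgs2 lies at chr1:143999338-144004161, Rgs1 at chr1:144242296-144249242 and Rgs18 at chr1:144752683-144775435, all on the minus strand. Rgs13 and Rgs21 lie in the same stretch, and no other protein-coding gene lies between these 5. Rgs13 had at most 1 read in any library and Rgs21 had 0, so neither could be described. Rgs16 lies apart at chr1:153740349-153745468 on the plus strand, next to Rgs8, which had at most 3 reads in any library. The other members are Rgs3 at chr4:62559847-62704001 on the plus strand, Rgs10 at chr7:128373621-128418758 on the minus strand, Rgs12 at chr5:34949445-35039644 and Rgs14 at chr13:55369732-55384687, both on the plus strand, and Rgs19 at chr2:181688419-181693977 on the minus strand. Antisense genes overlap 5.5% of the exon bases of Rgs12 and 10.1% of those of Rgs16, and whether the counting used strand is not given in the sources used here, so reads of those stretches could belong to either gene.

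The start regions of Rgs2 and Rgs16 are shown because these are the R4 members with a promoter entry whose response to zymosan differed most between genotypes, as given below. Each is a stretch of 200 bases, from 220 to 21 bases before the start, from RefSeq on GRCm38.p6, 5′ to 3′ on the gene's own strand. Capitals mark the matches to the motifs searched. Rgs2 is read from chr1:144004170-144004369 on the minus strand and Rgs16 from chr1:153740133-153740332 on the plus strand.
Rgs2: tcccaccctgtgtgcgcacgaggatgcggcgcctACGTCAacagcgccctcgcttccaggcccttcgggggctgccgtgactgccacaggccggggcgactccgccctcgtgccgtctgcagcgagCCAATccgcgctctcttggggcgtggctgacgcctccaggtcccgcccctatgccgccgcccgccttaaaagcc
Rgs16: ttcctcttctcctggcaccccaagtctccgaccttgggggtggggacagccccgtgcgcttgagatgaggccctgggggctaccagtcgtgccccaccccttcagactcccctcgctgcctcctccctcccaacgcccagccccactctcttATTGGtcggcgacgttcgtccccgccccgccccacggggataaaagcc

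The motifs searched, on both strands, were the cAMP response element core TGACGT, the AP-1 site TGANTCA, the NF-κB consensus, the interferon-stimulated response element, the NFAT core TGGAAA and the CCAAT box CCAAT. In Rgs2 the first run of capitals is the cAMP response element core read on the opposite strand, at -186 to -181, and the second is a CCAAT box at -94 to -90. In Rgs16 the capitals are a CCAAT box on the opposite strand at -68 to -64. Of 32841 mouse promoters of 300 bases, 7.51% held the cAMP response element core and 37.4% a CCAAT box. The AP-1 site was held by 7.81%, the NF-κB consensus by 8.46%, the interferon-stimulated response element by 3.44% and the NFAT core by 21.4%. Of the other members with an entry, Rgs12 had an AP-1 match at -22 to -16 and an NF-κB match at 20 to 29 in its second entry, and the entries of Rgs3, Rgs10 and Rgs19 held none of these letters. No matches overlapped in the members. In all, 6 of the 9 members matched by symbol, with 10 entries, and Rgs1, Rgs14 and Rgs18 had none. A match is a string of letters and was not tested for binding.

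Libraries held 14.4 to 24 M counts in genes. Values below are normalized counts, which are counts scaled to a common library of 20.6 M by the TMM method, and group values are means ± SD. Mcu itself ranged from 126 to 197 in WT (13 libraries) and from 54.2 to 83.4 in Mcu-/- cells (7 libraries), with no overlap. All 7 macrophage markers checked were found in every library. Mcu-/- untreated replicate 4 stood apart from its group: against the other 3 libraries its chi-square averaged 217 to 225 per gene, where 28 other pairs of replicates gave 1.60 to 6.53. This library and the 3 Mcu-/- zymosan libraries also shared marker levels that set them apart from the other 16. Their macrophage markers summed to 172272 to 192588 normalized counts against 270462 to 314871, their 4 stromal markers to 582 to 1075 against 21.1 to 135, their 8 neutrophil markers to 3.27 to 12.1 against 44.2 to 115, and their 4 megakaryocyte and platelet markers to 29.1 to 51.3 against 114 to 195. The stromal sum rested on Col1a1, Col1a2 and Col3a1, while Dcn overlapped the other libraries. The neutrophil sum rested on S100a8, S100a9 and Ngp, while Ly6g, Mpo, Elane, Retnlg and Camp overlapped at low values. Within the macrophage list 3 of 7 markers were lower in these 4 libraries, Lyz2 at 58188 to 67617 against 141551 to 172939, Adgre1 and Itgam. The other 4 were higher, Cd68 at 20009.6 to 24213 against 4307 to 6625, Fcgr1 at 10677 to 12081 against 2194 to 4942, Csf1r, and Mertk by a small margin. Of the 5 dendritic cell markers Cd209a was at 0 in every library, and their sum moved with zymosan, from 12.3 to 22.7 in WT untreated to 186 to 199 in WT with zymosan, 112 to 149 with BAPTA-AM, 13.9 to 21.8 in Mcu-/- untreated and 214 to 236 in Mcu-/- with zymosan. Xcr1 made up most of it, and its part in the zymosan and BAPTA-AM results of the members was not tested. Genotype under zymosan cannot be told apart from this difference between libraries, so every comparison with the Mcu-/- zymosan group below is read with it, and comparisons with Mcu-/- untreated cells are given with and without replicate 4. In bulk RNA, fewer cells of a type and less RNA per cell cannot be told apart.

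**Figure D1:**
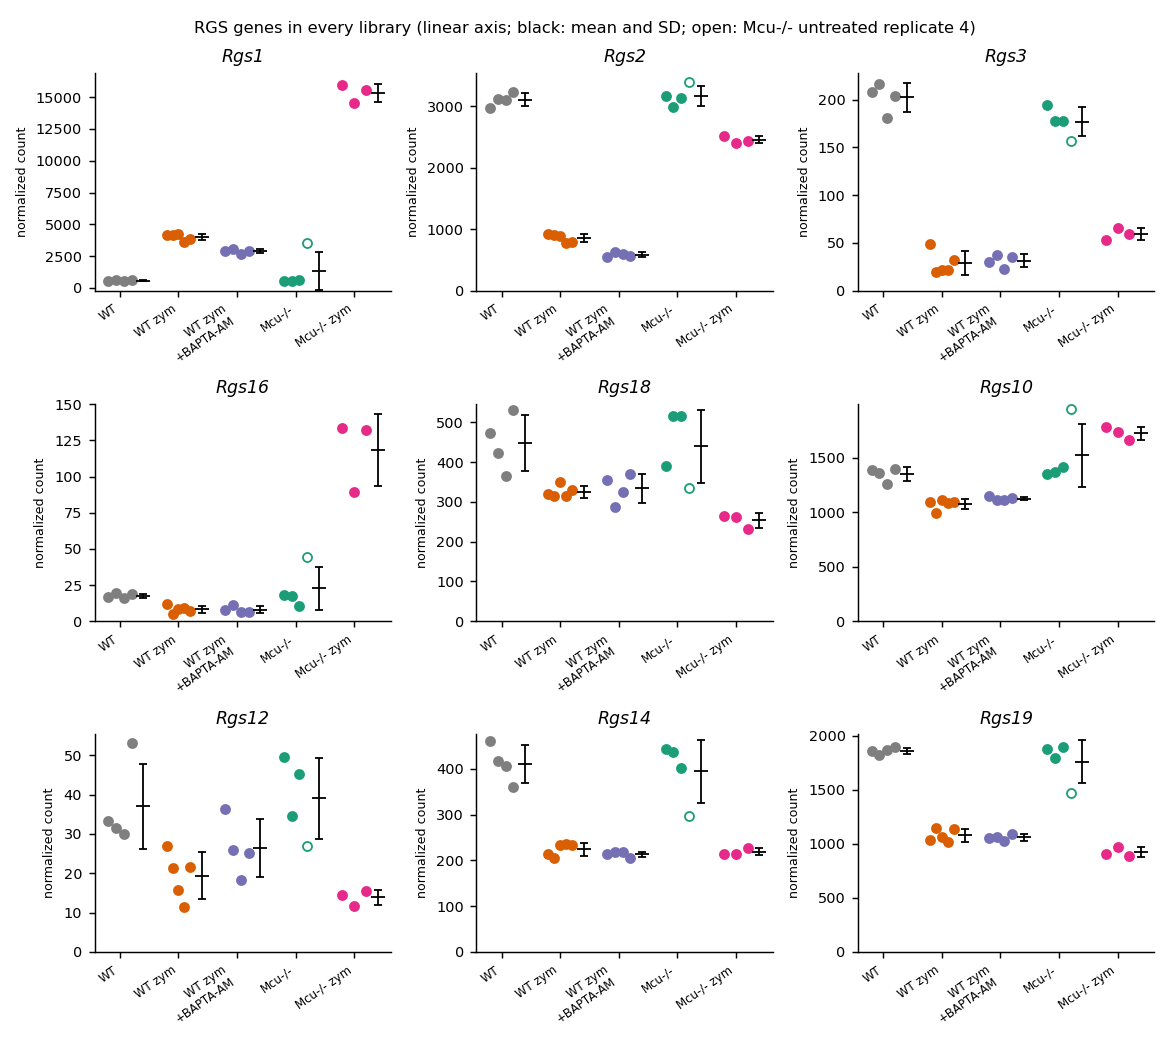
Normalized counts of the 9 members in each of the 20 libraries, 1 panel a gene, with the 5 groups on the x axis and the normalized count on a linear y axis that includes 0. Points are libraries, black marks are the mean ± SD of a group, and the open point is Mcu-/- untreated replicate 4. Rgs1 is higher in each zymosan group than in WT untreated cells, while Rgs2 is lowest in the WT groups given zymosan and stays between 2404 and 2521 in the Mcu-/- zymosan libraries.

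In WT macrophages, zymosan raised Rgs1 and lowered the 8 other members. All 9 passed the test (edgeR quasi-likelihood, Benjamini-Hochberg adjusted p under 0.05), with no overlap between the libraries of the groups for any of them. Most genes moved at this threshold: 69.1% of all genes tested were called, 32.4% higher and 36.8% lower, and 69.5% did not overlap. With an absolute log2 fold change of at least 1 as well, 4 members and 25.8% of all genes passed. The median log2 fold change was -0.87 over the members and -0.04 over all genes tested.

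Rgs1, a regulator of Gi and Gq signaling best known for limiting the response of lymphocytes to chemokines, had 545, 624, 541 and 585 normalized counts in the untreated WT libraries. With zymosan it had 4149, 4189, 4213, 3636 and 3857. The means were 574 ± 39.1 (SD, n = 4) and 4009 ± 253 (SD, n = 5), a 6.99-fold rise (log2 2.80 ± 0.44 SE, adjusted p = 1.3e-05). All 20 libraries share 1 estimate of the spread, and Rgs1 in Mcu-/- untreated replicate 4 lay far from its group. Without that library the rise was 2.81 ± 0.05 (adjusted p = 1.5e-35).

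Rgs2, which prefers Gαq, moved the opposite way in WT cells. It had 2972, 3126, 3095 and 3237 normalized counts untreated and 916, 910.1, 889, 782 and 786 with zymosan. The means of 3108 ± 109 (SD, n = 4) and 857 ± 66.9 (SD, n = 5) differed 3.63-fold (log2 -1.86 ± 0.06 SE, adjusted p = 5.2e-16). The promoter printed for Rgs2 holds the cAMP response element core, and no measurement here bears on its use.

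Rgs3, an R4 member with several isoforms, fell most. Its untreated WT libraries held 208, 217, 181 and 203 normalized counts and those with zymosan 49.3, 19.2, 22.1, 21.4 and 32.0. The fall was 7.05-fold (log2 -2.82 ± 0.19 SE, adjusted p = 1.0e-10), and the groups were far apart although the zymosan libraries rested on 18 to 42 reads each.

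Rgs16, a Gi and Gq regulator, was low in WT cells. It had 16.7, 19.2, 15.9 and 18.5 normalized counts untreated and 11.7, 5.33, 8.41, 9.03 and 6.86 with zymosan, the latter from 5 to 10 reads a library. The 2.11-fold fall passed the test (log2 -1.08 ± 0.37 SE, adjusted p = 0.015).

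Rgs18, which is best known from platelets and other blood cells, had 473, 424, 365 and 532 normalized counts in untreated WT cells and 319, 315, 349, 314 and 330.2 with zymosan. Its 1.37-fold fall (log2 -0.46 ± 0.12 SE, adjusted p = 0.0027) left the lowest untreated library just above the highest one with zymosan.

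In the R12 subfamily, Rgs10, a small Gi regulator known from microglia and macrophages, had 1387, 1365, 1264 and 1396 normalized counts untreated and 1092, 996, 1116, 1083 and 1091 with zymosan. This was the smallest fall, 1.26-fold (log2 -0.33 ± 0.08 SE, adjusted p = 0.0012). Rgs14, a scaffold that joins Gαi with Ras proteins, had 462, 417, 406 and 359.6 untreated and 214, 206, 233, 236 and 234 with zymosan, a 1.83-fold fall (log2 -0.87 ± 0.10 SE, adjusted p = 1.8e-07). Rgs12, its larger relative, was low, at 33.4, 31.5, 30.0 and 53.2 untreated and 27.0, 21.3, 15.8, 11.3 and 21.7 with zymosan. Its fall was 1.89-fold (log2 -0.91 ± 0.26 SE, adjusted p = 0.0041) from 10 to 23 reads in each zymosan library.

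Rgs19, the RZ member, a Gi regulator also known as GAIP, was even among replicates. It had 1858, 1826, 1864 and 1896 normalized counts untreated and 1032, 1147, 1059.7, 1018 and 1135 with zymosan. The fall was 1.73-fold (log2 -0.79 ± 0.06 SE, adjusted p = 8.6e-10).

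Per kilobase of transcript, the makeup of the members changed with zymosan. Levels of different genes were compared as CPM divided by the length of the longest protein-coding transcript. In untreated WT cells Rgs10 led at 74.6 ± 3.33 CPM per kb (SD, n = 4), followed by Rgs19 at 59.7 ± 0.919 and Rgs2 at 49.9 ± 1.75, while Rgs1 stood at 7.24 ± 0.494, or 3.39% of the sum over the members. With zymosan Rgs1 rose to 50.6 ± 3.19 CPM per kb (SD, n = 5), 29.5% of the sum and next to Rgs10 at 59.3, and Rgs2 dropped to 13.8, or 8.03%. Rgs12 and Rgs16 were lowest in untreated WT cells, at 0.328 and 0.364 CPM per kb. The order of Rgs2, Rgs10 and Rgs19 depends on the length used: by the union of all exons it was Rgs2, Rgs19, Rgs10 in untreated WT cells.

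**Figure D2:**
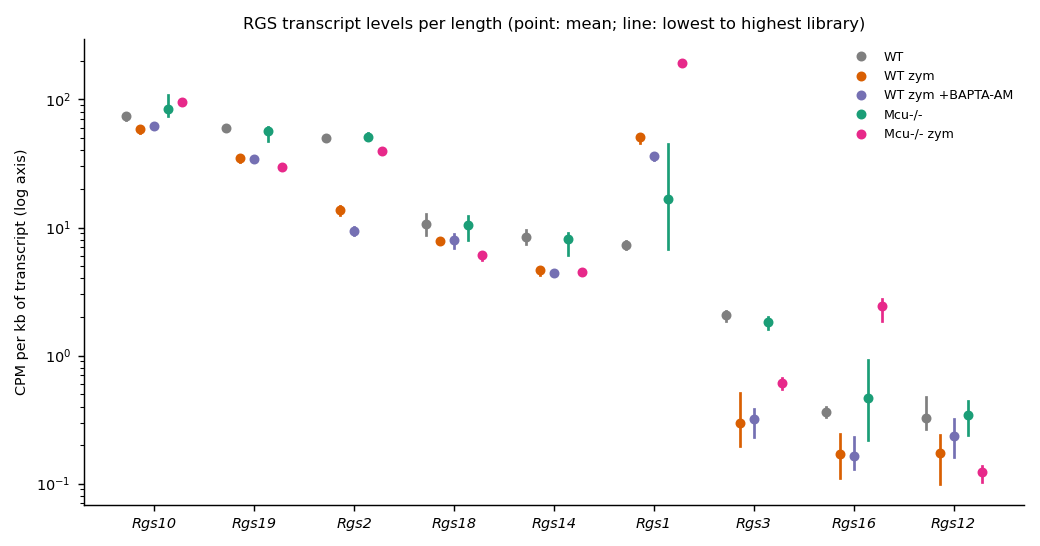
Level of each member per length of its longest protein-coding transcript, in CPM per kb on a log axis, with the 5 groups side by side for each gene. Points are group means and lines run from the lowest to the highest library. Rgs10, Rgs19 and Rgs2 lead in untreated WT cells at 74.6, 59.7 and 49.9 CPM per kb, and Rgs1 leads in the Mcu-/- zymosan group at 194.

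WT cells loaded with BAPTA-AM before zymosan were compared with the other WT groups. With no loaded group without zymosan, an effect of the loading itself cannot be told apart from a calcium-dependent part of the response. Against WT cells with zymosan alone, 1 member passed the test: Rgs2 was lower. Of all genes tested 12.8% were called, 6.43% higher and 6.33% lower, and the median over the members was -0.03 against 0.00 over all genes. Rgs2 and Rgs1 were the members whose libraries did not overlap, which held for 24.3% of all genes. With an absolute log2 fold change of at least 1 as well, 0 members and 0.666% of all genes passed.

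Rgs2 had 542, 627, 601 and 562 normalized counts after BAPTA-AM, every library below the lowest with zymosan alone, at 782. Its mean of 583 ± 38.1 (SD, n = 4) was 1.47-fold lower (log2 -0.56 ± 0.06 SE, adjusted p = 3.4e-06). Against untreated WT cells it was 5.33-fold lower (log2 -2.41 ± 0.06 SE, adjusted p = 6.3e-17), the lowest level of Rgs2 in any group.

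Rgs1 had 2914.5, 3027, 2652 and 2912 normalized counts after BAPTA-AM, every library below the lowest with zymosan alone, at 3636. With all libraries in the fit this difference did not pass (log2 -0.48 ± 0.40 SE, adjusted p = 0.52). Without Mcu-/- untreated replicate 4, which belongs to neither group, it passed at the same size (log2 -0.48 ± 0.04 SE, adjusted p = 1.0e-11), and 2 members were then called lower, where 31.8% of all genes were called, 15.3% higher and 16.5% lower. Rgs1 after BAPTA-AM was still 5.01-fold above untreated WT cells (log2 2.33 ± 0.44 SE, adjusted p = 0.00013).

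The 7 other members overlapped between loaded and unloaded cells. The log2 differences were 0.13 ± 0.23 (SE) for Rgs3, 0.07 ± 0.08 for Rgs10, 0.45 ± 0.27 for Rgs12, -0.07 ± 0.10 for Rgs14, -0.05 ± 0.44 for Rgs16, 0.04 ± 0.13 for Rgs18 and -0.03 ± 0.06 for Rgs19. The intervals are narrow for Rgs10, Rgs14, Rgs18 and Rgs19. For Rgs3, Rgs12 and Rgs16 few reads left wide ones, so a moderate difference was not detectable at this depth.

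Against untreated WT cells, the loaded cells had 1 member higher and 7 lower, with 66% of all genes called, 31.9% higher and 34.2% lower, and a median of -0.81 over the members against -0.03 over all genes. The libraries of 7 members did not overlap, as held for 69.6% of all genes, and 4 members and 23.9% of all genes also had an absolute log2 fold change of at least 1. This comparison shares its untreated libraries with that of zymosan alone. Rgs12 did not pass (log2 -0.46 ± 0.27 SE, adjusted p = 0.14), with loaded libraries at 36.3, 25.9, 18.3 and 25.02 normalized counts. Rgs18 passed (log2 -0.42 ± 0.13 SE, adjusted p = 0.0083), although its loaded libraries, at 355, 288, 325 and 370.0, reached past the lowest untreated one at 365. Rgs3 was 6.43-fold lower (log2 -2.68 ± 0.20 SE, adjusted p = 7.3e-10), at 29.7, 37.1, 22.3 and 35.4. The others were lower by -0.26 ± 0.08 for Rgs10 (adjusted p = 0.011), -0.94 ± 0.10 for Rgs14 (adjusted p = 1.9e-07), -1.13 ± 0.40 for Rgs16 (adjusted p = 0.019) and -0.81 ± 0.06 for Rgs19 (adjusted p = 1.7e-09) on the log2 scale. The call for Rgs16 was lost without BAPTA-AM replicate 4 (adjusted p = 0.054), and with library totals Rgs12 was called lower as well (log2 -0.892).

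**Figure D3:**
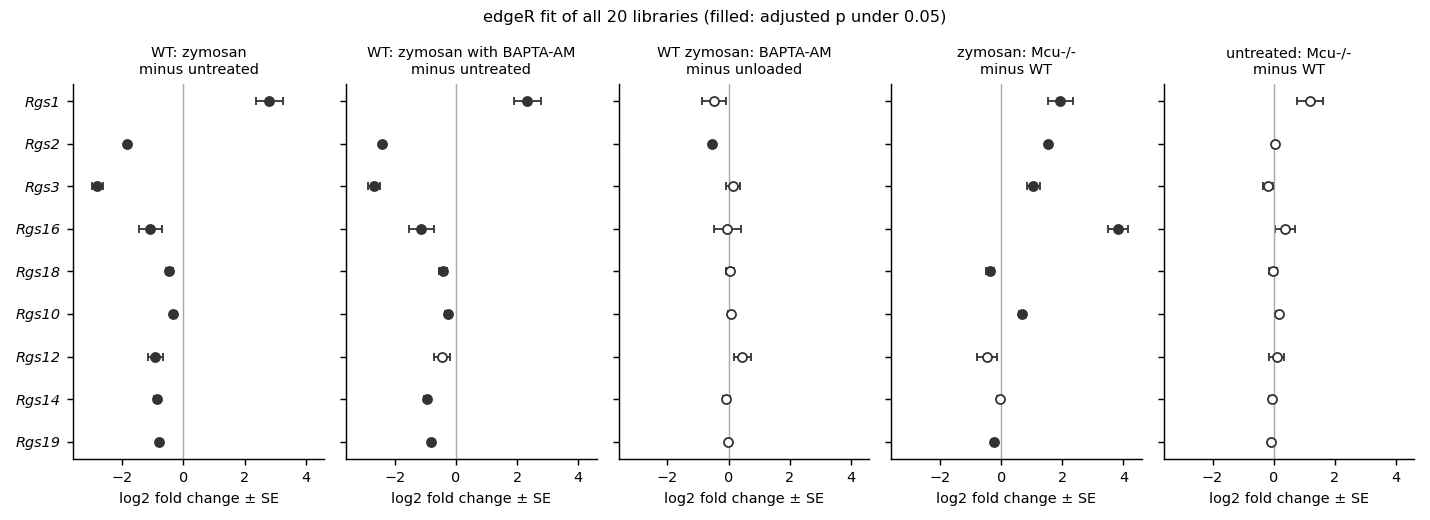
Log2 fold change of each member in 5 comparisons, as edgeR estimates ± SE from the fit of all 20 libraries, with filled points for an adjusted p under 0.05 and a line at 0. The panel for BAPTA-AM against zymosan alone has 1 filled point, Rgs2 at -0.56, and that for untreated Mcu-/- against WT has none.

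In untreated cells the genotypes were compared to ask whether loss of Mcu alone moved the members. None of the 9 was called by edgeR, and none of the 8 that DESeq2 gave a p, which left out Rgs1, and 0.35% of all genes were called by edgeR, 0.128% higher and 0.222% lower. No member's libraries were apart, as those of 7.09% of all genes were. At an unadjusted p under 0.05, 1 member, Rgs1, was picked up (log2 1.19 ± 0.43 SE, adjusted p = 0.24), where 14.9% of all genes were. Rgs1 had 533, 572 and 613 normalized counts in Mcu-/- replicates 1 to 3 and 3536 in replicate 4, beside 541 to 624 in WT, and without replicate 4 the difference was -0.001.

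Rgs2 had 3159.6, 2989.7, 3128 and 3395 normalized counts in the untreated Mcu-/- libraries, around the 2972 to 3237 of WT (log2 0.03 ± 0.06 SE, adjusted p = 0.82). Rgs3 had 194, 178, 178 and 157, and Rgs19 had 1875, 1799, 1896 and 1468. Replicate 4 was the lowest of its group in both.

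Rgs10 had 1355, 1372, 1416 and 1949.8, Rgs14 had 443, 437, 403 and 296, and Rgs18 had 392, 516, 516 and 335. Rgs12 had 49.5, 34.4, 45.2 and 27.0, and Rgs16 had 18.3, 17.6, 10.5 and 44.2. In all of these replicate 4 was the highest or the lowest of its group. The log2 differences from WT were -0.19 ± 0.17 (SE) for Rgs3, 0.17 ± 0.08 for Rgs10, 0.09 ± 0.25 for Rgs12, -0.06 ± 0.10 for Rgs14, 0.35 ± 0.33 for Rgs16, -0.03 ± 0.13 for Rgs18 and -0.08 ± 0.06 for Rgs19. Without replicate 4, 0 members were called by edgeR and 0 at an unadjusted p under 0.05, with 3.35% of all genes called, 1.53% higher and 1.83% lower, and 14.5% at an unadjusted p under 0.05.

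With zymosan, 7 of 9 members were called between Mcu-/- and WT cells, and most of all genes tested were called too. Higher were Rgs1, Rgs2, Rgs3, Rgs10 and Rgs16, and lower were Rgs18 and Rgs19. That made 5 higher and 2 lower, where 62.2% of all genes were called, 31.8% higher and 30.3% lower. Those 7 did not overlap between genotypes, as held for 64% of all genes. An absolute log2 fold change of at least 1 was also reached by 4 members and 15.5% of all genes, and the medians were 0.68 over the members and 0.02 over all genes. The markers given above differ between the same libraries, and their part in these differences was not tested.

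Rgs1 had 15922, 14566 and 15607 normalized counts in the 3 Mcu-/- zymosan libraries, far above the highest WT library with zymosan at 4213. The mean of 15365 ± 709.5 (SD, n = 3) was 3.83-fold higher (log2 1.94 ± 0.42 SE, adjusted p = 0.00061). Per length Rgs1 reached 194 ± 8.96 CPM per kb (SD, n = 3), 52.2% of the sum over the members, and passed Rgs10 at 95.2.

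Rgs16 had 133.5, 89.7 and 132 normalized counts, from 77 to 129 reads a library, while no WT library with zymosan exceeded 11.7. The difference of 14.2-fold was the largest of the members (log2 3.83 ± 0.33 SE, adjusted p = 3.7e-08). Its level per length stayed small, at 2.46 CPM per kb.

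Rgs2 had 2521, 2404 and 2437 normalized counts, 2.86-fold above WT with zymosan (log2 1.52 ± 0.06 SE, adjusted p = 1.1e-12) and below every untreated library of either genotype. Rgs3 had 53.4, 65.2 and 59.5, 2.07-fold higher (log2 1.05 ± 0.22 SE, adjusted p = 0.00057). Rgs10 had 1780.3, 1739 and 1661, 1.61-fold higher (log2 0.68 ± 0.09 SE, adjusted p = 3.7e-06). The libraries of these 3 genes did not overlap between genotypes.

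Rgs18 had 266, 262 and 233 normalized counts, 1.29-fold lower than in WT with zymosan (log2 -0.36 ± 0.14 SE, adjusted p = 0.032). The call was lost without WT zymosan replicate 3 (adjusted p = 0.061) and without either of 2 Mcu-/- zymosan libraries (adjusted p = 0.055 and 0.12). In the same libraries the summed megakaryocyte and platelet markers, of the cells Rgs18 is best known from, were low, through Ppbp and Gp9, while Itga2b and Gp1ba overlapped the other libraries. Their part in the difference was not tested. Rgs19 had 908, 975 and 888, 1.17-fold lower (log2 -0.22 ± 0.07 SE, adjusted p = 0.0082). Rgs12 had 14.6, 11.6 and 15.4 (log2 -0.47 ± 0.33 SE, adjusted p = 0.22) and Rgs14 had 215, 214 and 228 (log2 -0.04 ± 0.11 SE, adjusted p = 0.79), and both overlapped WT.

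Within the Mcu-/- cells, zymosan against untreated gave 2 members higher, Rgs1 and Rgs16, and 6 lower, where 73.8% of all genes were called, 34.3% higher and 39.4% lower. The same 8 did not overlap, as held for 61.6% of all genes, and 4 members and 30.8% of all genes also had an absolute log2 fold change of at least 1. The medians were -0.80 over the members and -0.06 over all genes. Rgs1 was 11.7-fold higher (log2 3.55 ± 0.47 SE, adjusted p = 1.9e-06), or 26.8-fold without replicate 4 of the untreated cells (log2 4.75 ± 0.06 SE). Rgs16 was 5.26-fold higher (log2 2.39 ± 0.30 SE, adjusted p = 1.2e-06), or 7.62-fold without it. The zymosan libraries differed from the untreated ones other than replicate 4 in the marker levels given above. This holds in the fit with replicate 4 and in the fit without it. Zymosan cannot be told apart from that difference in either.

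The falls in Mcu-/- cells were 1.29-fold for Rgs2 (log2 -0.37 ± 0.06 SE, adjusted p = 3.6e-05), 2.97-fold for Rgs3 (log2 -1.57 ± 0.21 SE, adjusted p = 1.7e-06) and 2.80-fold for Rgs12 (log2 -1.48 ± 0.31 SE, adjusted p = 0.00035). Rgs14 fell by 0.85 ± 0.11 (SE) on the log2 scale (adjusted p = 2.3e-06). Rgs18 fell 1.74-fold (log2 -0.80 ± 0.14 SE, adjusted p = 7.2e-05) and Rgs19 1.91-fold (log2 -0.93 ± 0.07 SE, adjusted p = 1.0e-09). Rgs10 did not pass with all libraries (log2 0.18 ± 0.09 SE, adjusted p = 0.078). It was called higher without replicate 4 (log2 0.32 ± 0.04 SE, adjusted p = 3.2e-08), which made 3 members higher and 6 lower with 81.5% of all genes called, 39.2% higher and 42.4% lower, but with library totals in place of TMM it was called lower (log2 -0.335, adjusted p = 0.00069), so its direction was not settled.

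The difference between the responses of the genotypes was tested as an interaction, the log2 change in Mcu-/- cells minus that in WT cells. With all libraries 4 members had a positive difference and 0 a negative one past the threshold, where 35.2% of all genes were called, 15.2% positive and 20% negative. The median was 0.51 over the members and -0.01 over all genes.

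Rgs16 differed most: it fell in WT cells and rose in Mcu-/- cells, a difference of 3.47 ± 0.48 (SE, adjusted p = 3.3e-05). For Rgs2 the difference was 1.49 ± 0.08 (adjusted p = 5.2e-10), since the fall with zymosan was 3.63-fold in WT and 1.29-fold in Mcu-/- cells. For Rgs3 it was 1.25 ± 0.28 (adjusted p = 0.0026) and for Rgs10 0.51 ± 0.12 (adjusted p = 0.0036). Without replicate 4 these became 4.01, 1.52, 1.20 and 0.65, and all 4 passed again.

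Rgs1, Rgs18 and Rgs19 passed only when replicate 4 was left out. The difference for Rgs1 was 0.75 ± 0.60 (SE, adjusted p = 0.35) with it and 1.94 ± 0.08 (adjusted p = 6.2e-23) without. For Rgs18 it went from -0.34 ± 0.19 (adjusted p = 0.17) to -0.46 ± 0.14 (adjusted p = 0.0049), and for Rgs19 from -0.14 ± 0.09 (adjusted p = 0.24) to -0.22 ± 0.06 (adjusted p = 0.0022). That made 5 positive and 2 negative, where 60.3% of all genes were called, 31% positive and 29.3% negative. The differences for Rgs12, -0.57 ± 0.41 (adjusted p = 0.29), and Rgs14, 0.02 ± 0.15 (adjusted p = 0.92), did not pass in either fit.

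**Figure D4:**
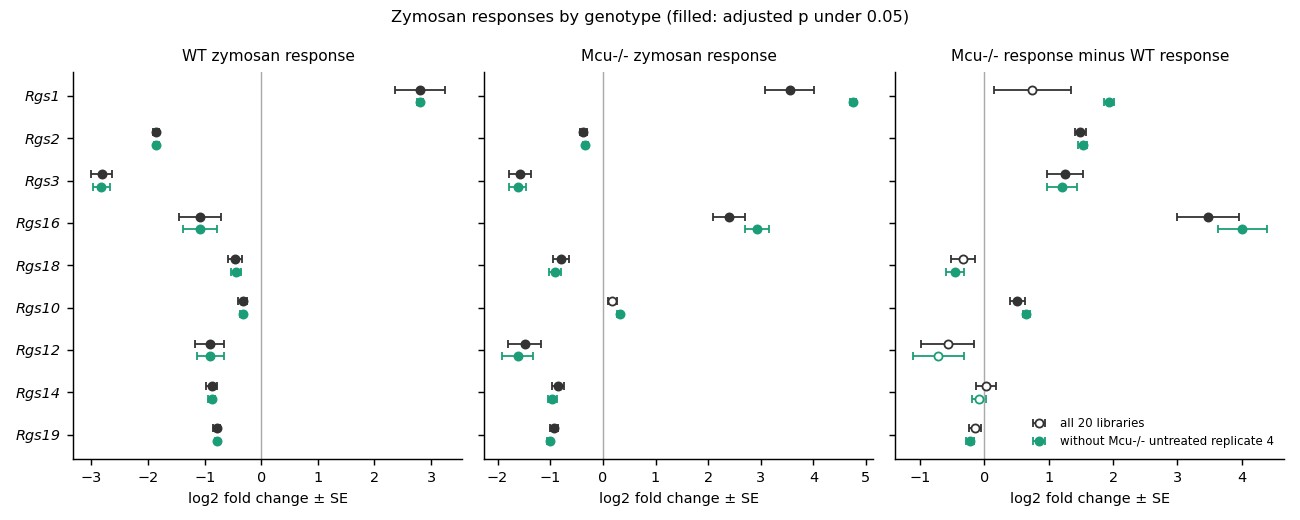
Log2 response to zymosan of each member in WT and in Mcu-/- cells, and the difference between them, with and without Mcu-/- untreated replicate 4, as estimates ± SE. The difference for Rgs1 moves from 0.75 to 1.94 when that library is left out, while that for Rgs2 is 1.49 and 1.52.

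Replicate 4 of the untreated Mcu-/- cells shared the macrophage, neutrophil and megakaryocyte marker levels of the Mcu-/- zymosan libraries. Its stromal sum of 582 lay between theirs, at 906 to 1075, and that of the other libraries, and its Xcr1, at 6.54, was at the level of untreated cells and not at their 204 to 223. Its members are set beside theirs, with no test since it is 1 library. Rgs1 was 6.17 times as high in it as in the mean of replicates 1 to 3, and the zymosan libraries were 4.34 times as high as it. Rgs16 was 2.85 times as high as in replicates 1 to 3, and the zymosan libraries 2.68 times as high as it. Rgs2 was 1.10 times as high, and the zymosan libraries were 1.38-fold lower than it. Rgs3 was 0.856 times as high, and the zymosan libraries were 2.65-fold lower than it. For Rgs10 the library was 1.41 times its group's other replicates and above all 3 zymosan libraries, and for Rgs12, Rgs14, Rgs18 and Rgs19 it lay between the 2 sets of libraries, at 0.627, 0.693, 0.707 and 0.791 times the other replicates.

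The order of levels over the 5 groups differed from member to member. For Rgs1 it ran from Mcu-/- zymosan to WT zymosan, WT with BAPTA-AM, and then Mcu-/- untreated, which overlapped WT with BAPTA-AM through replicate 4, and WT untreated, with no clear step between the untreated groups. For Rgs2 the untreated groups overlapped at the top, and Mcu-/- zymosan, WT zymosan and WT with BAPTA-AM followed without overlap. For Rgs3 the overlapping untreated groups were followed by Mcu-/- zymosan and then by both WT zymosan groups, which overlapped. Rgs16 had Mcu-/- zymosan alone at the top, the overlapping untreated groups, and the overlapping WT zymosan groups.

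For Rgs14 the untreated groups overlapped at the top and all 3 zymosan groups overlapped below. Rgs19 had the same first step, with Mcu-/- zymosan alone at the bottom. Neighbours in the order for Rgs10 overlapped except between WT untreated and WT with BAPTA-AM. For Rgs18 all neighbours overlapped down to Mcu-/- zymosan at the bottom, and for Rgs12 all neighbours overlapped.

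The tested genes whose profiles lay nearest to each member were found by the root mean square difference of log2 CPM, centred on each gene's mean, over the 20 libraries, and this is a description with no test. For Rgs1 they were Ms4a4c at 0.319 and Phf11a at 0.346, where the profile of Rgs1 itself varied by 1.65. For Rgs2 they were Tmem206 at 0.253 and Arhgap22 at 0.263, for Rgs3 Fmnl3 at 0.302 and Abl1 at 0.303, and for Rgs16 Trem2 at 0.406 and Adssl1 at 0.434. Rgs18 lay nearest to Yaf2 at 0.119 and Parp2 at 0.136. For Rgs10 they were Lrpap1 at 0.0641 and Alox5ap at 0.0652, for Rgs12 Ctdsp2 at 0.273 and Siva1 at 0.289, for Rgs14 Pxn at 0.0991 and Tbc1d2b at 0.113, and for Rgs19 Aagab at 0.0555 and Wdr12 at 0.0686. Low values for Rgs10 and Rgs19 go with their own small variation, 0.27 and 0.411. Among the members Rgs14 and Rgs19 were nearest, at 0.133, and Rgs1 and Rgs3 farthest, at 2.66. The 4 libraries with shared marker levels enter all of these.

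Of 15 other listed genes whose symbols start with Rgs, including Rgs7bp and Rgs9bp for RGS-binding proteins, 4 had enough reads to test. Rgs9, an R7 member best known from the retina and brain, moved with zymosan in the direction of Rgs1. It had 6.94 to 9.62 normalized counts in untreated WT cells, 50.1 to 62.2 with zymosan (log2 2.82 ± 0.23 SE, adjusted p = 1.5e-09) and 24.9 to 41.7 with BAPTA-AM, which was lower than zymosan alone (log2 -0.66 ± 0.19 SE, adjusted p = 0.026). In Mcu-/- cells Rgs9 had 22.1 to 32.8 with zymosan, lower than in WT (log2 -0.99 ± 0.21 SE, adjusted p = 0.0006). Rgs5, known from pericytes, had 16.7 to 26.2 in untreated WT cells and 0.762 to 5.64 in every other library. Rgs11 had 12.4 to 39.3 in the WT libraries, 18.1 to 26.4 in Mcu-/- untreated replicates 1 to 3, 3.27 in replicate 4 and 0 to 2.43 in the Mcu-/- zymosan libraries. Rgsl1 had 1 to 15 reads a library and no call.

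The G proteins that the members act on and the machinery around them were followed through lists of genes, counted with the same fit. With zymosan in WT cells, 5 of 10 tested Gα genes were higher and 4 lower, with a list median of 0.10. In that comparison 69.1% of all genes were called, 32.4% higher and 36.8% lower. Gna13 rose by 1.91 ± 0.10 (SE) on the log2 scale (adjusted p = 2.5e-12). Gna15, a Gq-class subunit of blood cells, fell by 3.18 ± 0.10 (adjusted p = 1.1e-15), and Gna11, of the same class, fell by 1.36 ± 0.13 (adjusted p = 2.7e-08). Of 11 Gβ and Gγ genes 5 were higher and 2 lower (median 0.22), with Gnb4 up by 2.79 ± 0.20 (adjusted p = 3.5e-10). In a list of other proteins with an RGS domain or GoLoco motif, 0 of 13 tested were higher and 7 lower (median -0.23). The falls were led by Akap10 at -1.56 ± 0.13 (adjusted p = 2.5e-09) and Arhgef11 at -0.89 ± 0.10 (adjusted p = 1.2e-07). That list leaves out the receptor kinases, which were counted in their own list, where Grk5 was called higher.

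Downstream and upstream of the G proteins the picture in WT cells was also mixed. Of 9 receptor kinases, arrestins and Ric8 chaperones 2 were higher and 5 lower (median -0.66), with Ric8a up by 0.70 ± 0.04 (SE, adjusted p = 1.4e-12) and Arrb2 lower at -1.14 ± 0.08 (adjusted p = 1.6e-10). Of 14 adenylyl cyclases, phospholipase Cβ enzymes and phosphodiesterases 2 were higher and 8 lower (median -0.49). Pde4b, which breaks down cAMP, rose by 2.44 ± 0.07 (adjusted p = 1.1e-16). Among receptors, 8 of 19 coupled to Gi were higher and 10 lower (median -0.24), 4 of 11 coupled to Gq were higher and 5 lower (median 0.18), and 2 of 7 coupled to Gs were higher and 3 lower (median -0.48). Hcar2, the niacin receptor, rose by 5.42 ± 0.16 (adjusted p = 3.7e-16), and Cx3cr1, the fractalkine receptor, fell by 5.25 ± 0.14 (adjusted p = 1.2e-16). Ptger4, a prostaglandin E receptor coupled to Gs, rose by 2.01 ± 0.13 (adjusted p = 3.7e-11).

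For BAPTA-AM against zymosan alone, the number of these genes called depended on Mcu-/- untreated replicate 4, which belongs to neither group, as it did for all genes (12.8% called with it and 31.8% without). With all libraries 0 Gβ and Gγ genes were called. Lower were Grk5 (log2 -0.56 ± 0.08 SE, adjusted p = 0.00015), Pde4b (-0.47 ± 0.06, adjusted p = 3.6e-05), Hcar2 (-0.99 ± 0.11, adjusted p = 1.2e-05), Ccr1 (-1.26 ± 0.30, adjusted p = 0.008) and Ptger4 (-0.61 ± 0.12, adjusted p = 0.0016). Those counts were 1 kinase, 3 Gi receptors and 1 Gs receptor lower, with P2ry6 as the 1 lower Gq receptor (-0.16 ± 0.05, adjusted p = 0.031). Of the enzymes 2 were lower, Pde4b and Pde8a, and 1 was higher, Pde7a. Gna11 and Arhgef11 were the higher ones of their lists, at 0.44 ± 0.14 (adjusted p = 0.045) and 0.34 ± 0.10 (adjusted p = 0.03). Without that library 5 of 9 kinases, arrestins and chaperones were lower and 0 higher, 2 Gα genes were higher and 5 lower, 1 Gβ and Gγ gene, Gnb1, was lower, and 3 genes of the RGS-domain and GoLoco list were higher and 1 lower. Of the enzymes 1 was then higher and 4 lower, and of receptors 2 coupled to Gi were higher and 8 lower, 1 coupled to Gq higher and 3 lower, and 3 coupled to Gs lower.

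Between genotypes with zymosan, 62.2% of all genes were called, 31.8% higher and 30.3% lower. The RGS-domain and GoLoco list had 7 of 13 higher and 4 lower. Gα genes had 3 higher and 3 lower, and Gβ and Gγ genes 2 higher and 6 lower. The kinase and arrestin list had 1 higher and 5 lower, the enzymes 6 and 2, and receptors coupled to Gi 8 and 4, to Gq 2 and 3, and to Gs 5 and 0. Grk6 (log2 -1.95 ± 0.31 SE, adjusted p = 3.7e-05) and Arrb1 (-1.51 ± 0.23, adjusted p = 2.1e-05) were the largest falls of the kinase and arrestin list, and both were low in Mcu-/- untreated replicate 4 as well, Grk6 at 749.97 normalized counts and Arrb1 at 3023. Of the Gs receptors Ptgir, the prostacyclin receptor, was higher by 1.85 ± 0.23 (adjusted p = 2.6e-06). For untreated cells with all libraries, Rgs5 and Cx3cr1 were the genes called in these lists, both lower in Mcu-/- cells. The share of all genes called was 0.35%. Without replicate 4 Gng11, Grk3, Plcb3, Ccr2 and S1pr1 were also called lower, where 3.35% of all genes were called. The Cx3cr1 promoter drives the Cre of the Mcu-/- line.

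The interaction counted 3 positive and 3 negative genes of the RGS-domain and GoLoco list, 3 and 1 of the Gα genes, 0 and 4 of the Gβ and Gγ genes, 1 and 5 of the kinases, arrestins and chaperones, and 3 and 1 of the enzymes. Of receptors coupled to Gi it counted 6 and 2, to Gq 1 and 2, and to Gs 2 and 0. Without Mcu-/- untreated replicate 4 the counts were 6 and 4 for the RGS-domain and GoLoco list, 4 and 3 for Gα, 3 and 7 for Gβ and Gγ, 2 and 5 for the kinases, arrestins and chaperones, 6 and 2 for the enzymes, and 10 and 4, 2 and 2, and 5 and 0 for receptors coupled to Gi, Gq and Gs. The share over all genes moved from 35.2% to 60.3%. Ric8a, a chaperone of most Gα subunits, was picked out after its values were seen, with a rise of 0.70 in WT cells, a fall of 0.29 ± 0.04 (SE) in Mcu-/- cells and an interaction of -0.99 ± 0.05 (adjusted p = 3.6e-10). Cx3cr1 had an interaction of 2.92 ± 0.21 (adjusted p = 2.1e-08) and Hcar2 of -1.66 ± 0.24 (adjusted p = 4.5e-05). Cx3cr1 was already lower in untreated Mcu-/- cells, as given above, and its interaction also holds that difference.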

How the data were processed

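RNA was sequenced from 20 libraries of BMDMs in 5 groups. The authors deposited 1 table of counts per gene, made from reads trimmed with cutadapt, mapped to mm10 with STAR and counted with HTSeq, with no normalization. The submitters' processing notes also name FastQC, MultiQC and DESeq2. Library totals of 14.4 to 24 M set the precision, and use of molecular identifiers is not given in the sources used here. Groups came from the labels, and 0 columns were left out. The 3 Mcu-/- zymosan columns are numbered 3, 4 and 5 but the labels count 1 to 3.

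Counts were fitted in R 4.3.3 with edgeR 4.0.16 (filterByExpr, TMM, quasi-likelihood, all libraries, 1 coefficient a group, no covariate), with Benjamini-Hochberg adjustment over 11707 genes and calls under 0.05. The fitting script was tested on simulated data. Alternatives were DESeq2 1.42.0, its size factors, library totals, looser and stricter filters, a minimum fold change, the groups compared alone, the replicate number as a block, and each library left out in turn. Figures used Python 3.11.15 and matplotlib 3.10.9.

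All members are named. Of each list, at most 2 called genes with the largest rise and 2 with the largest fall were eligible. The interaction of Ric8a was named after its value was seen. Nearest genes used a pseudocount of 0.1 CPM, and 2 were named a member. The members, lists and tests were chosen with earlier results of these data known. Sets of cell markers not given in the report were B cell (25.1 to 65.0 normalized counts summed), T and NK cell (0 to 10.5), erythroid (0.818 to 13.5) and mast cell (0 to 3.20), and Ncr1 and Fcer1a were at 0 in every library.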

Additional observations from a re-analysis of the deposited data

Results flagged for a closer look

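Within a group of 4 or 5 libraries, a library counted as apart when its gap to the nearest other, divided by the range of the group, passed Dixon's 95% critical value. Of 36 groups tested 4 had such a library, where chance gives about 1 in 20. Mcu-/- untreated replicate 4 stood apart for Rgs1, with a ratio of 0.973, at 3536 normalized counts against 533 to 613. It also stood apart for Rgs10, with 0.898, at 1949.8 against 1355 to 1416. WT zymosan replicate 2 was low for Rgs10, with 0.717, at 996 against 1083 to 1116. WT untreated replicate 4 was high for Rgs12, with 0.854, at 53.2 against 30.0 to 33.4.

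The response to zymosan differed between Mcu-/- and WT cells by edgeR's interaction test for 4 members, where 35.2% of all genes were called. The log2 differences were 1.49 for Rgs2, 1.25 for Rgs3, 0.51 for Rgs10 and 3.47 for Rgs16. Without Mcu-/- untreated replicate 4 the test also passed for Rgs1 at 1.94, Rgs18 at -0.46 and Rgs19 at -0.22. The share of all genes called was then 60.3%. The Mcu-/- zymosan libraries differ from the WT libraries in the markers of several cell types, and the part of this in the differences was not tested.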

How the results depend on the processing

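Under settings other than leaving out a library, 391 member results kept their direction and their side of the threshold, 4 gained a call and 4 turned sign. Requiring an absolute log2 fold change of at least 1 left 4 members each for zymosan against untreated in WT, for the same in Mcu-/-, for Mcu-/- against WT with zymosan and for BAPTA-AM against WT untreated, and 0 for BAPTA-AM against zymosan alone, with the shares of all genes given beside the counts above. With its groups fitted alone, the last comparison called 2 of 8 members, Rgs1 (-0.473) among them, and Rgs16 was not tested. The share of all genes was not counted for that fit. Rgs16 was also not tested with at least 10 counts in every library. DESeq2 gave no p for Rgs1. Rgs10 in Mcu-/- cells with zymosan was called higher with DESeq2 size factors (0.227) and by DESeq2 (0.228).

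Library totals moved the median of all genes by -0.49 in WT with zymosan, -0.52 in Mcu-/- with zymosan and -0.43 with BAPTA-AM against untreated. The share of calls that were higher then went from 46.8% to 18.6%, from 46.5% to 19.0% and from 48.3% to 19.9%. For BAPTA-AM against zymosan alone it went from 50.4% to 74.9%, or to 40.0% by DESeq2, and for untreated Mcu-/- against WT from 36.6% to 50.9% by DESeq2. Under library totals the sign turned for Rgs10 in Mcu-/- cells with zymosan (-0.335), Rgs16 (0.011) and Rgs19 (0.035) for BAPTA-AM against zymosan alone, and the interaction of Rgs14 (-0.012). The cause was not tested.

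Leaving out 1 library at a time gave 9 members called in each case for WT with zymosan, 8 to 9 in Mcu-/- with zymosan, 6 to 7 between genotypes with zymosan, 1 to 2 for BAPTA-AM against zymosan alone, 7 to 8 for BAPTA-AM against untreated, 0 in each case between untreated genotypes and 4 to 7 for the interaction. The upper counts of 2 and 7 came without Mcu-/- untreated replicate 4, where 31.8% and 60.3% of all genes were called. With all libraries these shares were 12.8% and 35.2%. For the other libraries left out, the share of all genes was not counted. Over single left-out libraries 1233 results kept their call and direction, 5 gained a call, 4 lost it and 18 turned sign. Of those that turned sign, none with a call, the values for BAPTA-AM against zymosan alone ran from -0.264 to 0.102 for Rgs16 and from -0.013 to 0.105 for Rgs18, and the interaction of Rgs14 from -0.083 to 0.084. Between untreated genotypes they ran from -0.001 to 1.453 for Rgs1, -0.006 to 0.055 for Rgs2, -0.041 to 0.304 for Rgs12, -0.12 to 0.049 for Rgs14, -0.179 to 0.59 for Rgs16 and -0.113 to 0.091 for Rgs18.

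With the replicate number as a block, all 36 member results kept their call. The members called were 9 for WT with zymosan, 1 for BAPTA-AM against zymosan alone, 8 for BAPTA-AM against untreated and 0 for untreated genotypes. The share of all genes was not counted with the block. Deviations of libraries with the same number correlated at -0.055 to 0.061, so no pairing by number was seen. These values do not exclude pairs, since the noise of single libraries was not separated from any shared part. No paired analysis was possible because of the numbering of the columns for the comparisons with Mcu-/- zymosan. Reads limit Rgs12 and Rgs16 most, at 5 to 23 reads a library in WT with zymosan.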
